A study of Mus musculus with 18 samples.

Results

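The genes described here are 5 that encode linkers and assembly factors of the actin cytoskeleton: *Ablim1* and *Ablim3* of the Ablim family, and *Enah*, *Evl* and *Vasp*, which make up the Ena/VASP family. They were chosen by gene symbol, and all 5 were found among the 23038 gene symbols of the deposited abundance table. In the deposited table of NOVA2-dependent alternative splicing, 7 of 1991 events carried one of these symbols, and all 7 belonged to *Ablim1*. Splicing of *Ablim3*, *Enah*, *Evl* and *Vasp* was not analysed here. The study itself names *Enah* among genes with NOVA2-target splicing events. A symbol missing from the events thus does not show that a gene has no NOVA2-dependent splicing.

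Ablim proteins bind actin filaments through a villin headpiece domain and other partners through LIM domains, and they are known from axon guidance. Ena/VASP proteins sit at the tips of growing filaments, where they recruit profilin-bound actin and slow the binding of capping protein, and they shape filopodia in the growth cone, the motile end of an axon. NOVA1 and NOVA2 are neuronal RNA-binding proteins that regulate alternative splicing and recognise YCAY, in which Y is C or U, in RNA.

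RNA was sequenced from the cortex of mice of the CD1 background at embryonic day 18.5, in 4 groups of 3 mice. *Nova2-/-* mice, whose *Nova2* allele carries an IRES-Cre cassette at the first known coding exon with the neomycin marker removed by Flp recombinase, were compared with wild-type littermates. *Nova1-/-* mice were compared with their own wild-type littermates, and splicing was also measured in midbrain and hindbrain of *Nova1-/-* mice and their wild-type littermates. Which wild-type mice belonged to which litters was taken from the numbers in the sample labels and from the study's methods. Both null alleles are constitutive and not restricted to the cortex.

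Total counts ranged from 16518172 to 31362018 per mouse, and the counts behind the values of the 5 genes ranged from 530 to 6081 per mouse. *Nova1* fell in *Nova1-/-* cortex by 9.06 on the log2 scale (adjusted p = 7.94e-07, edgeR), and *Nova2* fell in *Nova2-/-* cortex by 0.87 (adjusted p = 0.0373, edgeR). Summed markers of cortical projection neurons lay between 2138 and 2512 CPM (counts scaled by the TMM-adjusted library size of each mouse) in the 12 cortices, and those of midbrain and hindbrain between 2.64 and 10.5 CPM. The summed level of 20 meningeal markers was 316, 392 and 829 CPM in the wild-type mice 1, 2 and 3 of the *Nova2* litters. It was 1285 to 1445 CPM in the *Nova2-/-* mice, 1217 to 1540 CPM in the wild-type mice of the *Nova1* litters and 1047 to 1228 CPM in the *Nova1-/-* mice. Wild-type littermates of the *Nova2-/-* mice, mice 1 and 2 most of all, thus stood apart from the other mice in meningeal transcripts. Values without mice 1 and 2 are given beside some of the results they touch. Those fits keep a lone wild-type mouse of the *Nova2* litters, so that this group then has no spread of its own. In RNA from whole tissue, fewer cells of a type and less RNA per cell cannot be told apart.

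*Ablim1* lies on the minus strand of chromosome 19 (chr19:57107223-57389409, mm9, GENCODE annotation), and its 7 events lay near the 3′ end of the gene. The names of 4 events could be placed on annotated coding exons, and the others were not placed. In transcript order the placed exons were a 120-nt exon (chr19:57133575-57133694), a 105-nt exon (chr19:57125620-57125724) and an exon with a pair of acceptor sites, 147 nt (chr19:57121415-57121561) or 141 nt (chr19:57121415-57121555) long. All 4 lengths are multiples of 3, so that inclusion adds 40, 35, 49 or 47 codons, and none of these exon forms held a stop codon in the annotated frame. Of 263 distinct cassette exons of the event table that could be placed on annotated exons, 79.5% had a length that is a multiple of 3. Of the 15 coding transcripts of *Ablim1* that held both outer exons of this region, 5 had the 105-nt exon and the 141-nt or 147-nt exon, another 2 had the 120-nt exon as well, 5 had the 141-nt or 147-nt exon with neither of the others, and 3 had the 105-nt exon alone.

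The sequences below are those of the alternative exons with the flanking introns of the exon that moved most, read 5′ to 3′ on the transcribed strand of mm9. Capitals mark the DNA forms of YCAY. The form CCAC was searched for together with CCAT, and so were the forms that begin with T, namely TCAC and its partner TCAT. The search ran on the transcribed strand and counted overlapping matches.
120-nt exon: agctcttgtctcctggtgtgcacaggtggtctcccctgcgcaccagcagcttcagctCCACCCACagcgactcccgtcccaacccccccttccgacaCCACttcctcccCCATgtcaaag
105-nt exon: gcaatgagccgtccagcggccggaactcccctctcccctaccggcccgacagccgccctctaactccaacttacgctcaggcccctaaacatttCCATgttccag
200 bases upstream of the 147-nt exon (chr19:57121562-57121761): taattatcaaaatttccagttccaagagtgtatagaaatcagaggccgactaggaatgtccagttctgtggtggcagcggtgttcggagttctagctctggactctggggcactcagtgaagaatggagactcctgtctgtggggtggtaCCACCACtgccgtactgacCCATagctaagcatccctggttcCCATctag
147-nt exon: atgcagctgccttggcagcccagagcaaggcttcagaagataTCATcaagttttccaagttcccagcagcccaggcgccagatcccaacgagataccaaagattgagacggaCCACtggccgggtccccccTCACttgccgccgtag
200 bases downstream of the 147-nt exon (chr19:57121215-57121414): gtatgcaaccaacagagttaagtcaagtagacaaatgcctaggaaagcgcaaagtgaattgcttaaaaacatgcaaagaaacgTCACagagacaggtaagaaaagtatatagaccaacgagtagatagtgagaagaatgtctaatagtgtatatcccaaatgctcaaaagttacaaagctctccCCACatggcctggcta

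The 141-nt and 147-nt forms share their donor site and differ by 6 bases at the acceptor. The window around the alternative acceptors (chr19:57121536-57121581) is shown with these 6 bases, which are exon in the longer form and intron in the shorter one, in capitals. Both forms begin directly after an AG dinucleotide.
alternative acceptors: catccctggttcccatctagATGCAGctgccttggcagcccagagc

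In *Nova2-/-* cortex, alternative exons of *Ablim1* in the same region had shifts of opposite sign. They are not adjacent, since the spans of their events overlap at chr19:57123952-57123999, which lies between them. The authors deposited ΔI, the inclusion fraction in wild type minus that in the knockout, as 1 value per event and comparison, so that a value below 0 means more inclusion in the knockout. These values have no replicates and no depth, and every event was listed for its ΔI in *Nova2-/-* cortex, so the *Nova2-/-* values are given as a description with no test. ΔI in *Nova2-/-* cortex was -0.453 for the 141-nt exon and -0.448 for the 147-nt exon, both toward more inclusion in the knockout. For the 105-nt exon upstream of it ΔI was 0.152, toward less inclusion in the knockout.

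Skipping or inclusion of the 120-nt and 105-nt exons as a tandem pair had a ΔI of 0.187 in *Nova2-/-* cortex. A second tandem entry on the same span, which was not placed on annotated exons, had a ΔI of 0.188. These values lay on the same side as the 105-nt exon alone. Another 2 entries, on a span that covers the whole region, were of the mutually exclusive type, with ΔI of 0.379 and 0.415. The mutually exclusive entries were not placed on exons, so which exon their ΔI refers to was not determined here.

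The 7 entries overlap and share reads, and they reduce to 4 combinations of type and span. In size, |ΔI| of the *Ablim1* events ran from 0.152 to 0.453 with a median of 0.379, beside a median of 0.223 over all 1991 events. The 141-nt exon had a larger |ΔI| than 85.8% of cassette events, and the 105-nt exon than 25.1%. Of the 354 genes with at least 2 events in the table, 27.7% had, like *Ablim1*, events on both sides of 0.

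In *Nova1-/-* mice the same events stayed close to 0. For the 141-nt exon ΔI was -0.00945 in *Nova1-/-* cortex and 0.0218 in midbrain and hindbrain. For the 105-nt exon the values were 0.0175 and -0.0239. The largest shifts were those of the second tandem entry, 0.0403 in cortex and -0.0421 in midbrain and hindbrain, which lay on opposite sides of 0.

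None of the 7 *Ablim1* events reached |ΔI| of 0.1 in *Nova1-/-* cortex, where 11.1% of 1984 events of the table did. None reached it in *Nova1-/-* midbrain and hindbrain, where 15.9% of 1991 events did. With 7 overlapping events a count of 0 is near what these shares give, and ΔI has no replicate error with which the difference between the knockouts could be tested.

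**Figure D1:**
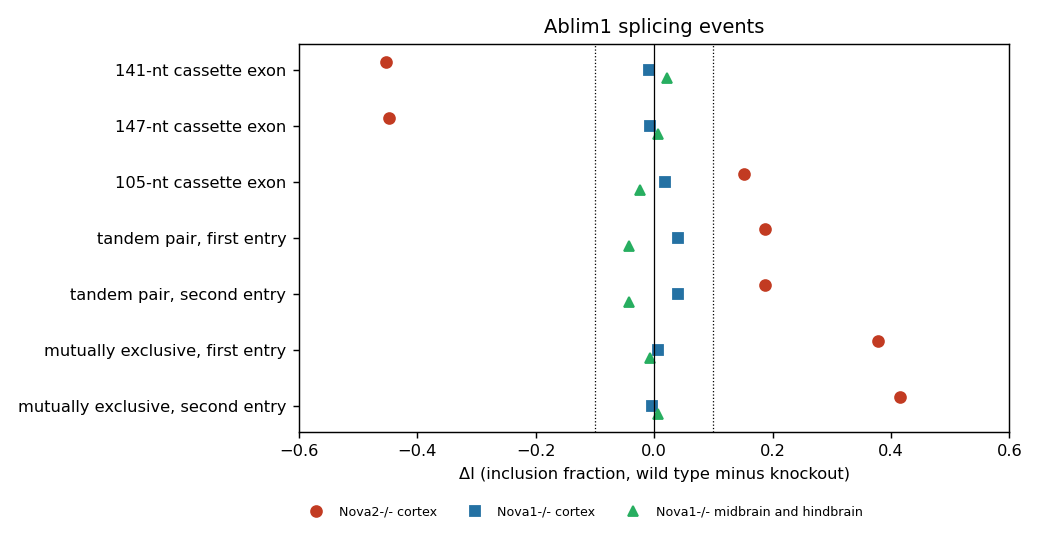
ΔI (inclusion fraction in wild type minus knockout) of the 7 *Ablim1* events in *Nova2-/-* cortex (circles), *Nova1-/-* cortex (squares) and *Nova1-/-* midbrain and hindbrain (triangles), each point being the authors' single value with no error bar and dotted lines marking ±0.1. The *Nova2-/-* values lie at -0.453 and -0.448 for both forms of the 3′-most exon and at 0.152 to 0.415 for the other entries, and all *Nova1-/-* values lie inside the dotted lines.

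YCAY motifs were present around each alternative exon of *Ablim1* at a density near that of other cassette exons of the table. The study kept only events with YCAY inside RNA segments crosslinked to NOVA1 or NOVA2, on the exon or its neighbouring introns. Presence of a motif was thus part of how all these events were chosen, for *Ablim1* and for the other cassette exons alike. The counts are a description. Within the exon and 200 bases on each side, the 141-nt exon held 9 motifs (1.66 per 100 nt), the 105-nt exon 9 (1.78 per 100 nt) and the 120-nt exon 11 (2.12 per 100 nt). The median over the 263 placed cassette exons was 1.92 per 100 nt, with quartiles of 1.48 and 2.51. At least as high a density was found at 63.5% of these exons for the 141-nt exon, at 57.8% for the 105-nt exon and at 40.7% for the 120-nt exon. With 100 bases on each side the order against the median turned for each exon, with 2.35 per 100 nt at the 141-nt exon, 2.30 at the 105-nt exon and 1.88 at the 120-nt exon beside a median of 2.03.

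The motifs were unevenly spread at the exon with alternative acceptors. All 4 upstream motifs began within the last 50 bases before the 147-nt form, 3 lay in the exon, and 2 lay in the 200 bases downstream, where 87.5% of the placed exons held at least 2. At the 105-nt exon, 3 of the 5 upstream motifs began within 32 bases of the acceptor and the 3 downstream motifs began 72 to 89 bases after the exon's last base. The 120-nt exon held 4 motifs within the exon, and 14.4% of the placed exons held at least as many. Among the placed exons, 97.0% had a motif in the 200 bases upstream, 67.3% in the exon and 95.4% in the 200 bases downstream. A match is a description of the letters and not a binding site.

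**Figure D2:**
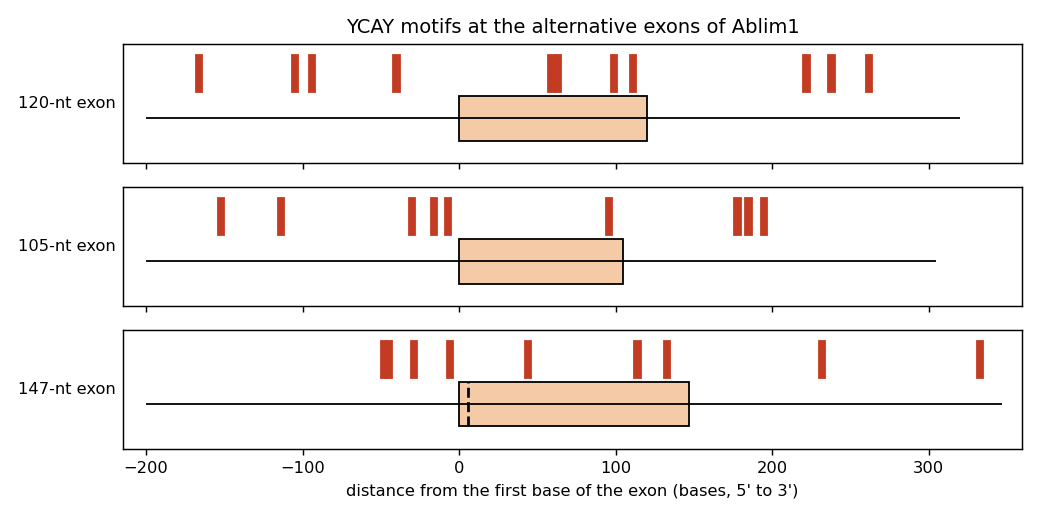
Positions of YCAY motifs (red bars) along the 120-nt, 105-nt and 147-nt exons of *Ablim1* (boxes) with 200 bases of intron on each side (lines), by distance in bases from the exon's first base. The dashed line marks the acceptor of the 141-nt form. All 4 motifs upstream of the 147-nt exon lie next to its acceptor, and the 120-nt exon has 4 motifs inside the box.

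Transcript levels of the 5 genes did not pass the test in either knockout. The test was edgeR's quasi-likelihood test of each knockout against wild-type littermates, with p-values adjusted over all genes by the Benjamini-Hochberg method and called below 0.05. In *Nova2-/-* cortex, 0 of 5 were called by edgeR, 0 had an unadjusted p under 0.05 and 0 were called by DESeq2, where 1.06% of the 15691 genes tested were called by edgeR. In *Nova1-/-* cortex, 0 of 5 were called by edgeR, 0 had an unadjusted p under 0.05 and 0 were called by DESeq2, where edgeR called 0.0126% of 15901 genes.

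*Ablim1*, the gene of the splicing events described above, was at 155, 160.3 and 192 CPM in the wild-type littermates and at 169, 189 and 173 CPM in the 3 *Nova2-/-* mice. The groups overlapped, and the highest value of all 12 cortices was that of wild-type mouse 3. The log2 fold change was 0.07 (SE 0.09, 95% interval -0.14 to 0.28, adjusted p = 0.729, edgeR). It lay between 0.0031, without wild-type mouse 1, and 0.17, without wild-type mouse 3, when 1 mouse was left out, and it was -0.12 (adjusted p = 0.413, edgeR) with wild-type mice 1 and 2 left out, an alternative chosen after seeing the data. In the *Nova1* litters the wild-type mice had 153, 164 and 173 CPM and the *Nova1-/-* mice 169.8, 155 and 136 CPM. The groups again overlapped, with a log2 fold change of -0.09 (SE 0.08, adjusted p = 0.841, edgeR).

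*Ablim3*, on chromosome 18 (chr18:61959049-62071506, mm9), was at 99.0, 84.8 and 99.6 CPM in the wild-type littermates and at 83.0, 85.2 and 94.3 CPM in *Nova2-/-* cortex, with a log2 change of -0.11 (SE 0.09, adjusted p = 0.543, edgeR). The values overlapped, and with wild-type mice 1 and 2 left out the change was -0.19 (adjusted p = 0.272, edgeR). In the *Nova1* litters it was at 86.5, 103 and 89.1 CPM in wild type and at 95.3, 86.2 and 74.6 CPM in *Nova1-/-* cortex, a log2 fold change of -0.12 (SE 0.09, adjusted p = 0.818, edgeR). The lowest value was that of a *Nova1-/-* mouse and the highest that of a wild-type mouse, with the others between them.

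*Enah*, also called Mena, is the Ena/VASP member best known from the developing brain and lies on chromosome 1 (chr1:183834576-183950111, mm9). It was at 103, 100.2 and 118 CPM in the wild-type littermates and at 111, 120.0 and 124 CPM in *Nova2-/-* cortex. Wild-type mouse 3 lay above the lowest *Nova2-/-* mouse, and the log2 fold change was 0.14 (SE 0.08, 95% interval -0.05 to 0.34, adjusted p = 0.385, edgeR). It was 0.22 without wild-type mouse 3 and -0.00053 (adjusted p = 0.998, edgeR) with wild-type mice 1 and 2 left out. In the *Nova1* litters the values were 107, 108 and 112 CPM in wild type and 110.3, 106 and 103 CPM in *Nova1-/-* cortex, with a log2 fold change of -0.04 (SE 0.05, adjusted p = 0.910, edgeR).

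*Evl* lies on chromosome 12 (chr12:109792930-109926723, mm9). It was at 239.9, 227 and 182 CPM in the wild-type littermates and at 189.8, 193 and 181 CPM in *Nova2-/-* cortex. Wild-type mice 1 and 2 lay above all *Nova2-/-* mice and wild-type mouse 3 lay among them. The log2 fold change was -0.20 (SE 0.10, 95% interval -0.43 to 0.03, adjusted p = 0.318, edgeR). Without wild-type mouse 3 it was -0.31 and passed the test (adjusted p = 0.0120, edgeR). That fit called 1433 genes over the whole table, against 166 with all mice. With wild-type mice 1 and 2 left out the log2 fold change of *Evl* was 0.05.

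The wild-type mice 1 and 2 with the highest *Evl* levels were also those with the lowest summed meningeal markers, 316 and 392 CPM, and the part of this in the *Evl* values was not tested. In the *Nova1* litters *Evl* was at 172, 183 and 183 CPM in wild type and at 199, 179.6 and 184 CPM in *Nova1-/-* cortex. These groups overlapped, with a log2 fold change of 0.06 (SE 0.06, adjusted p = 0.841, edgeR).

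*Vasp*, first known from platelets and the lowest of the 5 in CPM, lies on chromosome 7 (chr7:19842278-19857166, mm9). It was at 33.2, 31.4 and 28.0 CPM in the wild-type littermates and at 31.5, 37.6 and 37.6 CPM in *Nova2-/-* cortex. One *Nova2-/-* mouse lay within the wild-type range and the others above it, and the log2 fold change was 0.21 (SE 0.11, 95% interval -0.04 to 0.46, adjusted p = 0.344, edgeR). It was 0.35 (adjusted p = 0.148, edgeR) with wild-type mice 1 and 2 left out. In the *Nova1* litters it was at 27.7, 30.9 and 28.6 CPM in wild type and at 29.1, 26.4 and 25.0 CPM in *Nova1-/-* cortex. The log2 fold change there was -0.12 (SE 0.08, adjusted p = 0.808, edgeR).

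**Figure D3:**
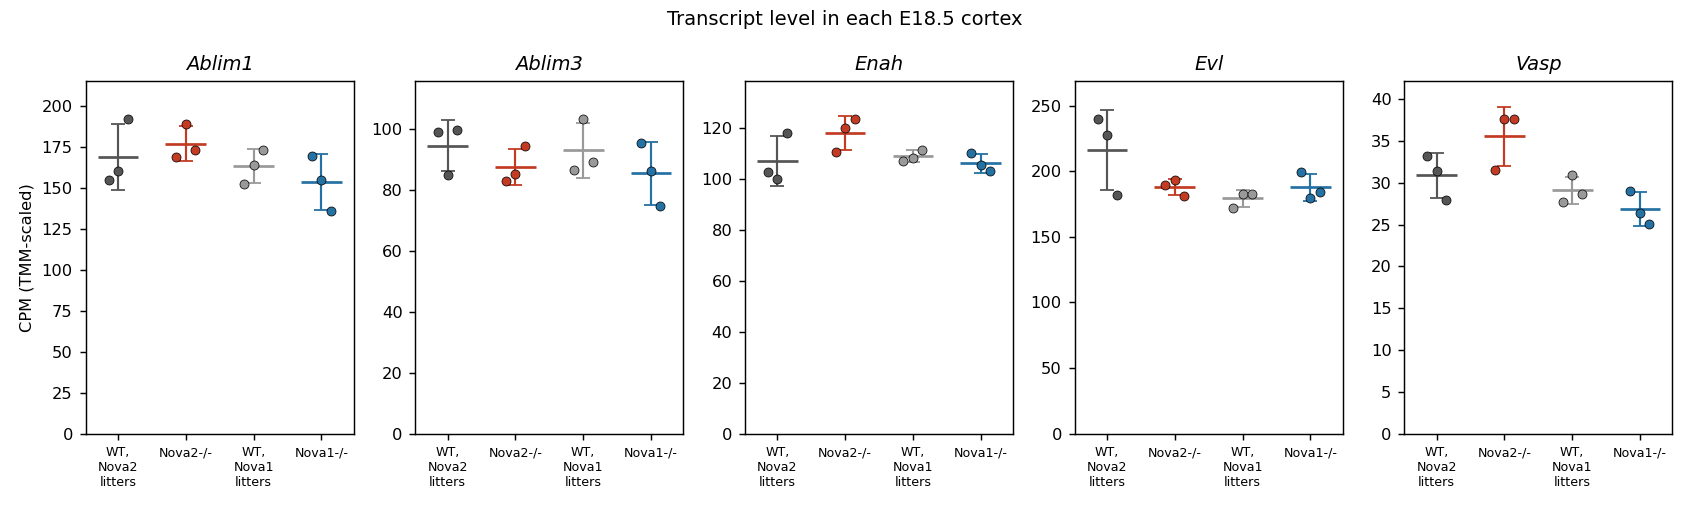
Transcript levels in CPM (TMM-scaled library sizes, linear axes from 0) of the 5 genes in each of the 12 cortices, with 1 point per mouse and the mean ± SD of each group of 3. In every panel each knockout overlaps its wild-type littermates, and the wild-type mice of the *Nova2* litters spread widely for *Evl*, from 182 to 239.9 CPM.

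For 0 of the 5 genes did the 3 values of a knockout lie entirely above or below those of its wild-type littermates. Over all genes tested, 25.9% were separated in this way in the *Nova2* litters and 13.4% in the *Nova1* litters. With 5 genes a count of 0 is near what these shares give. The 95% intervals bound the changes that these mice leave possible. Over the 5 genes and both knockouts, the lowest bound was -0.43, for *Evl* in *Nova2-/-* cortex, and the highest was 0.46, for *Vasp* in *Nova2-/-* cortex. An adjusted p above the threshold does not show that the levels were equal.

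The difference between the knockouts, that is the log2 fold change in *Nova2-/-* less that in *Nova1-/-* cortex, was tested on all 12 cortices. It was called for 0 of the 5 genes by edgeR and by DESeq2, where edgeR called 1.83% of 16210 genes. An unadjusted p under 0.05 was found for 2 of the 5, beside 18.2% of all genes tested. The difference was -0.28 on the log2 scale for *Evl* (SE 0.12, adjusted p = 0.253, edgeR) and 0.31 for *Vasp* (SE 0.15, adjusted p = 0.273, edgeR). Without wild-type mouse 3 of the *Nova2* litters the difference for *Evl* was -0.38 and passed the test (adjusted p = 0.0126, edgeR). That fit called 1005 genes over the whole table, against 296 with all mice. For *Ablim1*, *Ablim3* and *Enah* the differences were 0.15, 0.0042 and 0.17. That of *Ablim3* changed sign in 4 of 12 fits with 1 mouse left out, from -0.081 to 0.097. With wild-type mice 1 and 2 left out the differences were -0.028 for *Ablim1*, -0.064 for *Ablim3*, 0.037 for *Enah*, -0.019 for *Evl* and 0.46 for *Vasp*, and edgeR called none (lowest adjusted p = 0.0769).

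Wild-type mice of one set of litters were compared with those of the other to see how far levels differ with no knockout. Here 3.03% of 15918 genes were called by edgeR, and 26.9% had groups that did not overlap. Among the 5 genes the count was 0 in each case, which is near these shares. DESeq2 also called 0 of the 5, and 1 had an unadjusted p under 0.05, beside 21.1% of all genes tested. That gene was *Evl*, which was lower in the wild-type mice of the *Nova1* litters by a log2 fold change of -0.27 (SE 0.10, adjusted p = 0.160, edgeR). Without wild-type mouse 3 of the *Nova2* litters it was -0.39 and passed the test (adjusted p = 0.00073, edgeR). That fit called 3561 genes over the whole table, against 483 with all mice. Leaving out wild-type mice 1 and 2 gave -0.023 for *Evl*, and the sign turned for *Enah* (-0.12) and *Vasp* (0.056). This comparison shares its mice of the *Nova2* litters with the *Nova2-/-* comparison.

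**Figure D4:**
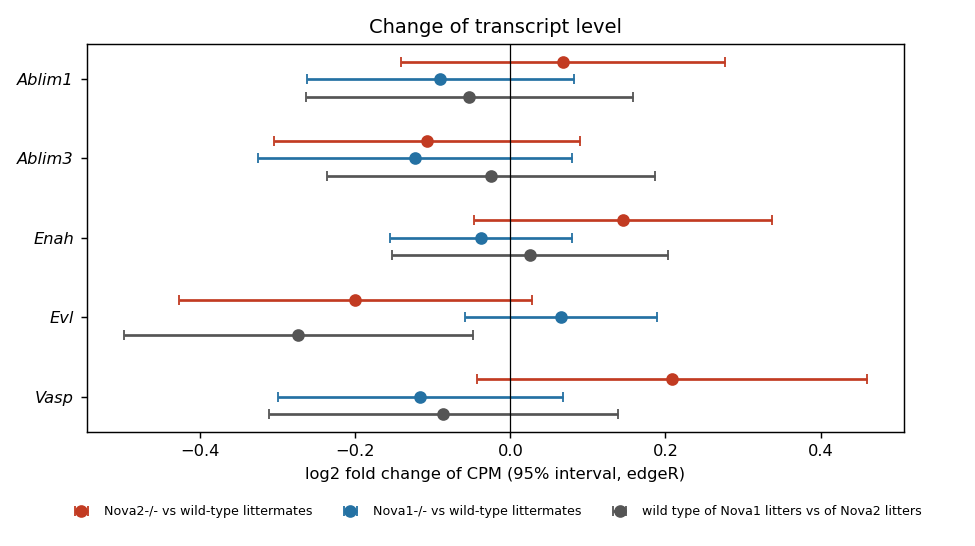
Log2 fold changes of the 5 genes with 95% intervals from edgeR, for *Nova2-/-* and *Nova1-/-* cortex against wild-type littermates and for wild-type cortex of the *Nova1* litters against that of the *Nova2* litters (3 mice per group). The intervals of both knockouts include 0 for all 5 genes, and the interval of *Evl* between the wild-type groups, -0.50 to -0.05, does not.

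Per length of annotated exons, *Evl* had the highest level of the 5 genes in the developing cortex, 71.6 ± 7.59 CPM per kb (SD, n = 12 mice of all groups). *Enah* followed with 25.7 ± 1.71 CPM per kb, *Ablim3* with 19.8 ± 1.82, *Ablim1* with 13.8 ± 1.31 and *Vasp* with 12.5 ± 1.64 CPM per kb. The lowest mouse of each gene lay above the highest mouse of the next one, except that *Ablim1*, at 11.3 to 16.1 CPM per kb, overlapped *Vasp*, at 10.3 to 15.4 CPM per kb. The place of *Ablim1* depends on the length used, since its annotated exons joined span 11965 bases and its longest transcript 7152 bases. Per kb of the longest transcript it was at 23.2 CPM per kb, above *Ablim3* at 19.9 CPM per kb.

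Exons of *Evl* overlap *Degs2* and the lincRNA gene *Gm16596* on the opposite strand, and an exon of *Vasp* overlaps *1700058P15Rik* on the opposite strand. The library kit does not mark strand, so reads from the shared stretches cannot be assigned to one gene. *Degs2* was at 34.4 to 49.1 CPM and *Gm16596* at 10.2 to 15.4 CPM in the 12 cortices.

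Other genes of the same machinery were compared in 3 lists. Among 24 partners of Ena/VASP proteins and related actin-binding genes, 2 rose in *Nova2-/-* cortex, 0 fell, 6 had an unadjusted p under 0.05, and the median log2 fold change was -0.03, beside 0.0092 over all genes. Over all genes tested 1.06% were called and 19.2% had an unadjusted p under 0.05, so that the counts at an unadjusted p in these lists are near the background. Of 35 genes for actin assembly and capping, 0 were called by edgeR and 8 had an unadjusted p under 0.05, while DESeq2 called 1, *Arpc5*, lower in the knockout. Of 35 genes for actin severing, bundling and motors, edgeR called 1, higher in the knockout, and 9 had an unadjusted p under 0.05. DESeq2 called this gene and also *Cfl1*, *Cfl2* and *Dstn*, which encode cofilins and destrin and were lower in the knockout. Over the whole table DESeq2 also called more genes than edgeR, as given in the closing section. Of the edgeR fits that left out 1 mouse, only that without wild-type mouse 3 called *Cfl1* and *Dstn*. None of these fits called *Cfl2* or *Arpc5*.

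*Lpp*, a LIM protein that binds VASP at focal adhesions, was at 39.7, 39.0 and 44.8 CPM in wild type and at 64.2, 65.1 and 66.0 CPM in *Nova2-/-* cortex, with a log2 change of 0.66 (SE 0.09, adjusted p = 0.0229, edgeR). *Vcl*, which encodes the adhesion protein vinculin, was at 39.8, 38.6 and 47.2 CPM in wild type and at 60.9, 64.3 and 60.6 CPM in the knockout, a log2 fold change of 0.57 (SE 0.10, adjusted p = 0.0405, edgeR). *Myh9*, a non-muscle myosin heavy chain, was at 75.1, 78.5 and 98.6 CPM in wild type and at 123, 127 and 141 CPM in the knockout, with a log2 fold change of 0.64 (SE 0.11, adjusted p = 0.0448, edgeR). For each of these genes the groups did not overlap and wild-type mouse 3 was the highest of its group.

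The wild-type mice of the *Nova1* litters had *Vcl* at 63.8 to 68.0 CPM and *Myh9* at 107 to 121 CPM, nearer to the *Nova2-/-* mice than to the wild-type mice of the *Nova2* litters. *Lpp* lay between them at 49.9 to 53.1 CPM. Some markers of other cells were also higher in *Nova2-/-* cortex. Of 20 meningeal markers, 4 were called higher in *Nova2-/-* cortex (*Cldn11*, *Ogn*, *Dcn* and *Col1a1*), all 20 had a log2 fold change above 0 and the median was 1.33. Of 18 markers of endothelium and mural cells, 2 were called higher (*Kdr* and *Abcc9*) and 14 had a log2 fold change above 0. Their summed levels were 440 to 507 CPM in the wild-type littermates and 565 to 581 CPM in the knockout. In the wild-type mice of the *Nova1* litters they were 469 to 494 CPM. DESeq2 called 9 of the meningeal and 5 of the endothelial and mural markers, all higher in *Nova2-/-* cortex. The part of these cells in the values of *Lpp*, *Vcl* and *Myh9* was not tested.

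Each of *Lpp*, *Vcl* and *Myh9* lost its call in 5 of 6 fits that left out 1 mouse, keeping it without wild-type mouse 3, while the log2 fold changes stayed between 0.63 and 0.73 for *Lpp*, 0.52 and 0.66 for *Vcl* and 0.56 and 0.77 for *Myh9*. The fit without wild-type mouse 3 called 1433 genes over the whole table, against 166 with all mice. With wild-type mice 1 and 2 left out, the log2 fold changes fell to 0.54 for *Lpp*, 0.39 for *Vcl* and 0.41 for *Myh9*. A lone wild-type mouse is then left, so these values are given with no test. *Svil*, which encodes supervillin, had the largest log2 fold change of the first list, 1.05, and was not called by edgeR (adjusted p = 0.0756) but was by DESeq2. With wild-type mice 1 and 2 left out its log2 fold change was 0.61. *Svil* was at 18.1 to 33.1 CPM in the wild-type littermates and at 42.8 to 61.7 CPM in *Nova2-/-* cortex. In the wild-type mice of the *Nova1* litters it was at 33.7 to 43.9 CPM.

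In *Nova1-/-* cortex, edgeR called 0 genes of the 3 actin lists, with 2 of 24, 1 of 35 and 3 of 35 at an unadjusted p under 0.05, beside 7.44% of all genes, and medians of -0.01, -0.01 and -0.02 on the log2 scale. DESeq2 called 1 of these genes, *Tes*, lower in the knockout. *Lpp* had a log2 fold change of 0.09 and *Vcl* one of -0.16 in *Nova1-/-* cortex.

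**Figure D5:**
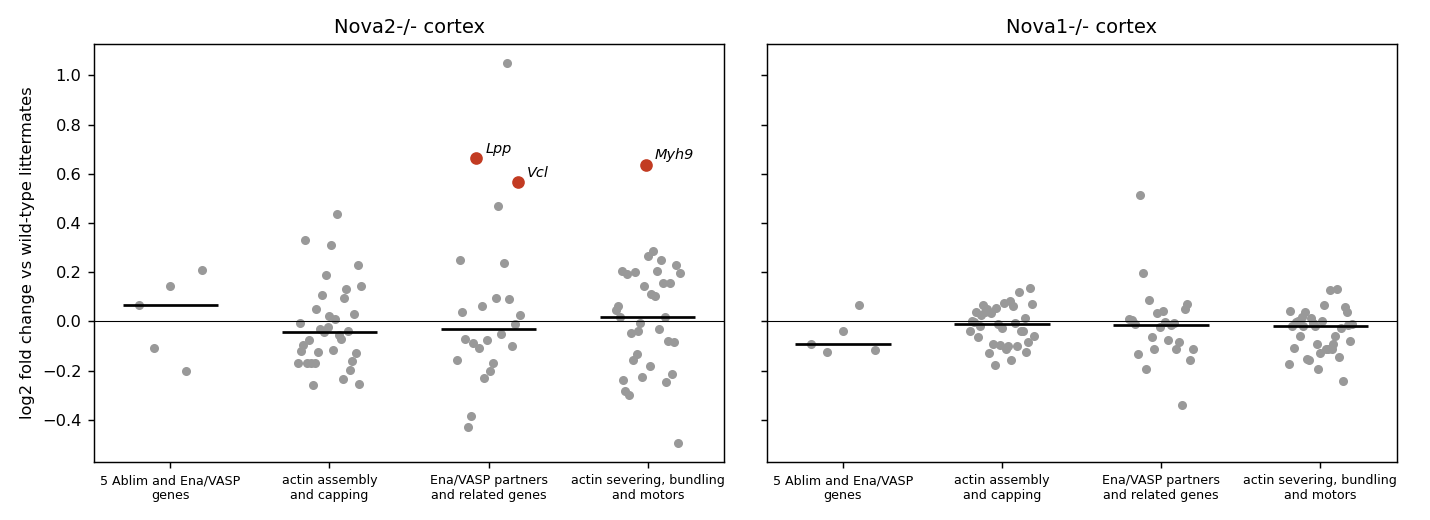
Log2 fold change against wild-type littermates of the 5 genes and of the 3 lists of actin genes in *Nova2-/-* (left) and *Nova1-/-* cortex (right), with 1 point per gene, black lines at the median and larger red named points where edgeR's adjusted p was below 0.05. *Lpp*, *Vcl* and *Myh9* are the called genes on the left, between 0.57 and 0.66, and no gene is called on the right.

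Across the 12 cortices *Ablim1* and *Enah* varied together, with Pearson's r of 0.78 for log2 CPM and 0.79 for the deviations from the group means. *Evl* and *Enah* varied oppositely, with r of -0.46 and -0.60. Other pairs reached sizes like that of *Evl* and *Enah* in log2 CPM, in the deviations or in both. For *Ablim1* and *Ablim3* r was 0.48 and 0.55. For *Ablim1* and *Vasp* it was 0.53 and 0.12, and for *Enah* and *Vasp* 0.52 and 0.08. For *Evl* and *Vasp* r was 0.33 and 0.62, for *Ablim3* and *Enah* 0.29 and 0.57, and for *Ablim3* and *Vasp* 0.30 and 0.53. These values describe 12 libraries that also differ in depth and in summed meningeal markers, and no p is given.

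By the same measure the genes most like *Enah* were *Eif4g1*, a scaffold of translation initiation (r = 0.93), *Mtap1b*, a microtubule-associated protein of axons (r = 0.93), and *Slc12a7*, a cotransporter of potassium and chloride (r = 0.92). Those most like *Ablim1* were the kinase gene *Sik2* (r = 0.91), *Ifit1* (r = 0.90) and *Glp2r* (r = 0.90). Those most like *Evl* were *Zbbx*, *Edem2* and *Ttc9b* (r = 0.93, 0.90 and 0.90). *Vasp* was followed most closely by *5330426P16Rik*, *Slfnl1* and *Zfp236* (r = 0.94, 0.94 and 0.93), and *Ablim3* by *1700020A23Rik*, *Akr1b10* and *Scnn1a* (r = 0.91, 0.89 and 0.87). With 16209 genes compared over 12 cortices, correlations above 0.8 were found for 6 genes with *Ablim3* and for 213 with *Vasp*.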

How the data were processed

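Cortex and midbrain/hindbrain RNA was depleted of ribosomal RNA, and the authors sequenced paired-end libraries. They used OLego with mm10 for alignment and deposited expected counts per gene symbol for the 12 cortices, not normalized. The counting program and its annotation are not given in the sources used here. The authors also deposited ΔI, another unit from -1 to 1, lifted to mm9, with no replicates. The header does not state its sign, which was taken from exons shown in the study's gels. Both tables hold the authors' own fold changes or FDR values, which were not used. Transcript levels of midbrain and hindbrain were not analysed here.

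The members and lists were chosen with earlier results of these data known. Counts were rounded, filtered (filterByExpr), TMM-scaled and tested with edgeR 4.0.16 in R 4.3.3, using the mice of the compared groups. CPM uses TMM-scaled library sizes. Intervals and SEs come from the fit, and SDs are over mice. In simulated counts with 200 genes changed by 2 on the log2 scale, the *Nova2* comparison recovered 194 and the *Nova1* comparison 198. DESeq2 1.42.0, other filters and normalizations, mice left out and a replicate block were the alternatives.

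Cassette entries of the event table were placed on GENCODE exons where the offsets in their names matched annotated exons, which held for 272 of 941 entries (263 distinct exons), and sequence was read from the NCBIM37 (mm9) genome with Python 3.11.15. Genes named from the lists were those called in either knockout and up to 3 with the smallest p in *Nova2-/-* cortex, of which some are printed. For each of the 5 genes the 3 most correlated genes are named. Further lists of cell markers gave these results in *Nova2-/-* cortex: 0 of 12 projection neuron, 0 of 11 radial glia, 0 of 2 midbrain and hindbrain, 0 of 9 blood and 0 of 12 microglia genes were called by edgeR, with 2, 3, 1, 2 and 4 at an unadjusted p under 0.05 and 2, 1, 0, 0 and 2 called by DESeq2. In *Nova1-/-* cortex edgeR called no gene of any marker list and DESeq2 called 1, *Kdr*.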

Additional observations from a re-analysis of the deposited data

How the results depend on the processing

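With no filter, at least 10 counts in every mouse, upper-quartile normalization, DESeq2, all 12 cortices in one fit or a replicate block, 100 of 100 values of the 5 genes kept their sign and side of the threshold. With the replicate block, *Nova2-/-* log2 fold changes were 0.07, -0.11, 0.15, -0.19 and 0.21 for *Ablim1*, *Ablim3*, *Enah*, *Evl* and *Vasp*. The mice share only a number: same-numbered pairs correlated at 0.113, 0.00604 and 0.168 in their deviations from group means, and the block called 220 genes against 166. Of 150 values with 1 mouse left out, 11 changed sign and 3 passed the threshold. *Evl* ranged from -0.31 to -0.13 in *Nova2-/-* cortex, from -0.38 to -0.19 in the difference between the knockouts and from -0.39 to -0.20 between the wild-type groups. *Ablim3* ranged from -0.081 to 0.10 in the difference, and between the wild-type groups *Ablim1* ranged from -0.12 to 0.049, *Ablim3* from -0.12 to 0.029 and *Enah* from -0.014 to 0.10. With wild-type mice 1 and 2 of the *Nova2* litters left out, chosen after seeing the data, the sign changed for *Ablim1* (-0.12), *Enah* (-0.00053) and *Evl* (0.046) in *Nova2-/-* cortex, for *Ablim1* (-0.028) and *Ablim3* (-0.064) in the difference, and for *Enah* (-0.12) and *Vasp* (0.056) between the wild-type groups. The lone mouse left is then assumed to vary like the other groups, and the cause was not tested.

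Over all genes, the 166 called in *Nova2-/-* cortex became 799 by DESeq2, 1334 in one fit of 12 and 7 to 1433 with 1 mouse left out. The 2 called in *Nova1-/-* cortex became 33 by DESeq2, 1 with at least 10 counts and 1 to 10 with 1 mouse left out. The 296 called in the difference became 856 by DESeq2 and 113 to 1005 with 1 mouse left out, and the 483 between wild-type groups became 1289, 1590 in one fit of 12 and 3 to 3561. With wild-type mice 1 and 2 left out the counts were 1587, 2081 and 2268 for the comparisons with these mice. Of the actin lists in *Nova2-/-* cortex, the 2 called partners became 0 to 3 and the 1 called severing, bundling or motor gene became 0 to 2 higher and 0 to 3 lower with 1 mouse left out, also chosen after seeing the data. With wild-type mice 1 and 2 left out, 3 partners were called higher and 2 lower, 1 assembly gene higher and 2 lower, and 1 severing, bundling or motor gene lower. The 7 *Ablim1* events became 4 at |ΔI| of at least 0.2, 3 as cassette exons and 4 with entries of the same type and span counted once. With 100 bases on each side, motif density was 2.35 per 100 nt at the 141-nt exon, 2.31 at the 147-nt form, 2.30 at the 105-nt exon and 1.88 at the 120-nt exon, against a median of 2.03, so each crossed the median. Per kb of the longest transcript *Evl* was at 88.4 CPM per kb and *Ablim1* at 23.2 CPM per kb. With 3 mice a group, changes inside the intervals given could not be resolved, and ΔI has no depth.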
